A study of Mus musculus with 14 samples.

Results

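A set of 10 hypoxia response genes was followed through every assay of Lin28a+ and control muscle stem cells (MuSCs). They are Hif1a, Epas1 and Arnt, Egln1 and Egln3, and Vegfa, Bnip3, Bnip3l, Ndrg1 and P4ha1. They were chosen by symbol, through the Ensembl identifiers of the input table and the Entrez identifiers of the immunoprecipitation tables, and make up 10 of the 16429 genes with a row in at least 1 table. Untreated control MuSCs from mouse skeletal muscle were compared with Lin28a+ MuSCs in 14 libraries, 2 in each of 7 groups. Input RNA, RNA immunoprecipitated with an m6A antibody (m6A-RIP) and RNA immunoprecipitated with an Igf2bp3 antibody (Igf2bp3-RIP) came from both kinds of cells, and Lin28a-RIP came from Lin28a+ MuSCs alone. The Lin28a+ cells had been sorted from Lin28a-CreERT2; LSL-tdTomato mice, in which a tamoxifen-dependent Cre enzyme driven by Lin28a switches on a red reporter. Both groups grew on Matrigel in DMEM with serum. The sources used here name no hypoxic culture, and give neither the age of the mice nor the number pooled in a library.

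Cells sense oxygen through the hydroxylation of HIF alpha subunits. Prolyl hydroxylases encoded by Egln genes mark Hif1a and Epas1 proteins for destruction by the Vhl ubiquitin ligase while oxygen is plentiful, and when oxygen falls the alpha subunits pair with Arnt and switch on genes for blood vessel growth, glycolysis, mitophagy and collagen modification. Because this control acts on protein, the level of Hif1a mRNA does not by itself report HIF activity. Muscle stem cells meet low oxygen in their niche and after injury. The modified base m6A is read by several proteins, among them Igf2bp3.

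The input values summed to 4842915 to 6220960 estimated counts per library, and the RIP tables held 9215355 to 36610494 counts per library. In the input table both Lin28a+ columns are headed with m6A-RIP library names, so every RNA result below rests on the assignment of that table to input. The spread between the 2 libraries of a group was small in RNA (a biological coefficient of variation of 2.48%) and large in Igf2bp3-RIP (27.9%). The methods speak of biological replicates for experiments in general, but nothing says that the 2 sequenced libraries of a group came from separate animals or cultures, so the p-values measure the spread between these libraries, which may be technical. Levels are in CPM (counts scaled by library size), and since gene lengths were not applied, they are compared between groups and not between genes. Among the muscle stem cell markers Pax7 rose from 142 and 154 CPM in control to 193 and 188 CPM in Lin28a+ MuSCs, and Myod1 was at 4641 to 4714 CPM in all 4 libraries. Of that list 2 rose and 4 fell among 8 tested, where 28.2% of all 11317 genes tested were called higher and 28.7% lower. The other rise was that of Cdh15 (log2 fold change 0.77). The falls were those of Vcam1 (log2 fold change -1.93), Myf5 (-1.21), Sdc4 (-1.10) and Des (-0.53), and all of these passed edgeR's test. Among markers of other cells, Pecam1 of endothelial cells stayed at 0.391 to 0.512 CPM, Ptprc of leukocytes at 0.0314 to 0.0719 CPM and Pdgfra of fibro-adipogenic progenitors at 0.0872 to 0.235 CPM, each near 0 in both groups. The 5 endothelial markers in the table summed to 1.18 to 1.417 CPM in control and to 1.74 to 1.94 CPM in Lin28a+ MuSCs, and the 5 macrophage markers to 2.23 to 3.25 CPM and to 1.60 to 2.41 CPM. The 4 progenitor markers in the table, mostly Gsn, summed to 148 to 153 CPM and to 76.6 to 76.8 CPM, but Ly6a of that list rose from 3.93 and 4.58 CPM to 13.5 and 12.5 CPM. The 6 pericyte or smooth muscle markers, mostly Acta2, summed to 5541 to 5582 CPM and to 7600 to 7621 CPM. Within that list Pdgfrb rose (log2 fold change 1.27) while Rgs5 fell (-3.35). Both were low, with Pdgfrb at 1.78 and 1.69 CPM in control and Rgs5 at 0.196 and 0.204 CPM in Lin28a+ MuSCs. Apart from Pax7, Myod1, Pdgfra, Pecam1, Ptprc and Acta2, the markers named here were picked with their values in view. The part of these shifts in the results that follow was not tested. In bulk RNA, fewer cells of a type and less RNA per cell cannot be told apart.

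In RNA, Egln3 fell most in Lin28a+ MuSCs (log2 fold change -2.01), and Hif1a (-0.58) and Bnip3l (-0.57) fell by nearly equal amounts. Bnip3 (-0.26) and P4ha1 (-0.22) fell less, and no member rose. Of the 8 members tested, 5 were lower and 0 higher, where 56.8% of all 11317 genes tested were called by edgeR's quasi-likelihood test at a Benjamini-Hochberg adjusted p under 0.05 (28.2% higher and 28.7% lower). A share of 5 in 8 is near that background. The median log2 fold change of the 8 was -0.24, against 0.01 over all genes tested. With DESeq2, 2 of the 8 (Hif1a and Egln3) were called, where 3039 of the 11317 genes were. With each library left out in turn, 3 or 4 of 9 members tested were, where 5406 to 5809 of 11528 to 11676 genes were, and Bnip3 and P4ha1 were the members lost. With 1 library left out, the spread came from the other group alone and the lone library was assumed to vary like it.

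**Figure D1:**
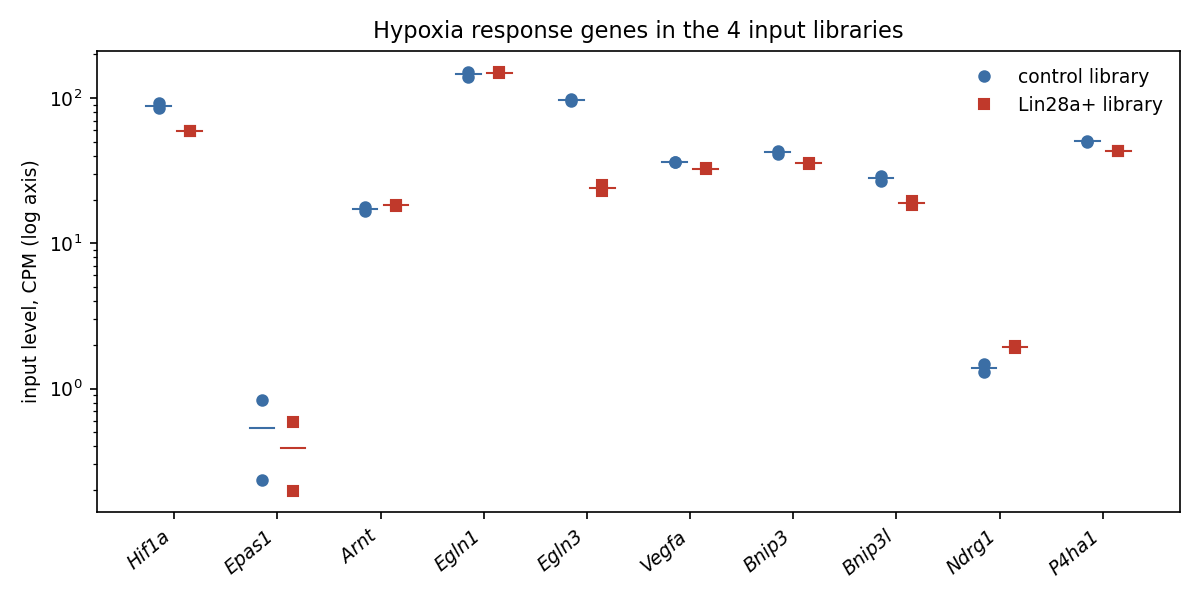
Input level of each hypoxia response gene in CPM on a log axis, with 1 point per library (blue circles, control; red squares, Lin28a+) and a line at the mean of 2. Egln3 stands at 95.8 and 98.3 CPM in control and at 22.8 and 25.3 CPM in Lin28a+ MuSCs, the widest separation shown, while the points of Egln1 and of Epas1 overlap.

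Among the transcription factor subunits, Hif1a (ENSMUSG00000021109), the oxygen-regulated alpha subunit, was at 84.8 and 92.0 CPM in the control libraries and at 59.2 and 59.3 CPM in the Lin28a+ libraries. The groups did not overlap, and the log2 fold change was -0.58 ± 0.05 (SE), a level 1.49-fold higher in control (adjusted p = 3.51e-04, edgeR's quasi-likelihood test). Arnt, the constitutive partner of the alpha subunits, was at 16.7 and 17.8 CPM in control and at 18.3 and 18.1 CPM in Lin28a+ MuSCs. Its difference was not called (log2 fold change 0.08, 95% interval -0.27 to 0.43, adjusted p = 0.684 by edgeR). Epas1, which encodes the second alpha subunit HIF-2alpha, was barely detected, with 1.26 and 5.19 estimated counts in control and 1.00 and 2.88 in Lin28a+ MuSCs, and was removed by the filter on low values.

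Of the 3 hydroxylases that mark the alpha subunits, Egln3 fell. Egln3, itself a gene that HIF switches on, was at 98.3 and 95.8 CPM in control and at 25.3 and 22.8 CPM in Lin28a+ MuSCs. Both Lin28a+ libraries lay far below both controls, with a log2 fold change of -2.01 ± 0.06 (SE) and a level 4.02-fold higher in control (adjusted p = 8.93e-06, edgeR). Egln1, the main hydroxylase under normal oxygen, was at 140 and 152 CPM in control and at 148 and 151 CPM in Lin28a+ MuSCs. Those ranges overlap, and the 95% interval of the log2 fold change ran from -0.09 to 0.15 around 0.03, so an Egln1 change of the size seen for Egln3 lies outside it. Egln2, the remaining paralog of these enzymes, rose slightly, from 52.2 and 54.0 CPM to 61.0 and 61.0 CPM (log2 fold change 0.20, adjusted p = 0.0291, edgeR).

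The genes downstream of HIF differed among themselves. Bnip3l, also called Nix, a mitophagy receptor of the outer mitochondrial membrane, was at 27.03 and 29.01 CPM in control and at 19.5 and 18.3 CPM in Lin28a+ MuSCs. Its log2 fold change was -0.57 ± 0.07 (SE; adjusted p = 8.71e-04, edgeR), and DESeq2 gave an adjusted p of 0.0960. Bnip3, the related mitophagy receptor, was at 41.1 and 43.5 CPM in control and at 35.1 and 35.7 CPM in Lin28a+ MuSCs. The log2 fold change was -0.26 ± 0.07 (SE; adjusted p = 0.0189, edgeR). That call was lost with DESeq2 (adjusted p = 0.393), without the second control library (-0.22, adjusted p = 0.140 by edgeR) and without either Lin28a+ library (adjusted p of 0.0924 and 0.0574 by edgeR). P4ha1, the catalytic subunit of a collagen prolyl hydroxylase, was at 50.8 and 49.8 CPM in control and at 43.1 and 43.1 CPM in Lin28a+ MuSCs. Its log2 fold change of -0.22 ± 0.06 (SE) passed with edgeR (adjusted p = 0.0289) but not with DESeq2 (adjusted p = 0.422), with library totals instead of TMM (0.0582) or with any library left out (0.0662 to 0.0978 by edgeR). The log2 fold change itself stayed between -0.19 and -0.24 in these fits.

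Vegfa, the growth factor that draws blood vessels towards hypoxic tissue, was at 36.3 and 36.1 CPM in control and at 32.4 and 32.8 CPM in Lin28a+ MuSCs. The groups did not overlap, yet the difference was not called (log2 fold change -0.15, 95% interval -0.38 to 0.08, adjusted p = 0.233 by edgeR). Ndrg1, a stress-induced gene often used to report hypoxia, was at 1.29 and 1.48 CPM in control and at 1.96 and 1.90 CPM in Lin28a+ MuSCs. These are 7 to 10 estimated counts a library, and Ndrg1 was removed by the filter. With no filter its log2 fold change was 0.46 (adjusted p = 0.469, edgeR).

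HIF binds short DNA motifs with the core ACGTG or GCGTG. RefSeq promoter windows of GRCm38.p6, from 250 bases before to 50 bases after a start listed for the gene, which can lie inside the gene's span (by several kb for Hif1a and the second Vegfa window), were at hand for 7 of the 10 members and were searched on both strands, where the palindrome CACGTG counts once on each. ACGTG was found in 6 of the 7 (Hif1a 3, Bnip3 2 and Egln1, Egln3, P4ha1 and Vegfa 1 each, that of Vegfa in the second of its 2 windows), and in 19.6% of all 32851 windows. Such shares are per window while the members are counted per gene, and Vegfa has 2 windows. GCGTG was found in 5 of the 7 (Bnip3 3, P4ha1 2 and Arnt, Egln1 and Vegfa 1 each) and in 32.4% of all windows, and Arnt held only that form. A match describes letters and not binding. The stretches around 1 ACGTG match are shown for the hydroxylase that fell and the one that did not, and for the other called members with a window, 5′ to 3′ on the gene's strand with the match in capitals (CACGT is ACGTG read on the other strand).
Egln3 (chr12:54204087-54204115, minus strand): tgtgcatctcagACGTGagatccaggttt
Egln1 (chr8:124949306-124949334, minus strand): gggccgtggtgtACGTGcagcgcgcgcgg
Hif1a (chr12:73907721-73907749, plus strand): acacagacaagcACGTGagcggggcagct
Bnip3 (chr7:138909597-138909625, minus strand): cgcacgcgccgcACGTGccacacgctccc
P4ha1 (chr10:59323268-59323296, plus strand): tgtgacagagcgCACGTagcgagggctgc
Both hydroxylase windows hold 1 ACGTG, and that of Egln1 also holds 1 GCGTG, which that of Egln3 does not.

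Lists of the wider hypoxia pathway held both rises and falls, and are to be read against the 28.2% of all genes called higher and the 28.7% called lower. Of 20 tested HIF targets of glucose metabolism, 14 rose and 2 fell (median log2 fold change 0.41), and of 35 other tested HIF targets 9 rose and 14 fell (median -0.21). Among the glucose genes the largest rises were those of the lactate transporter Slc16a3 (log2 fold change 1.06) and the glycolytic enzymes Eno1 (0.83) and Tpi1 (0.79), while the glycogen branching enzyme Gbe1 (-1.34) and the hexokinase Hk2 (-0.71) fell. Among the other targets the lysyl oxidase relatives moved apart, with Loxl2 rising from 1.00 and 1.34 CPM to 14.4 and 17.7 CPM (log2 fold change 3.81) and Lox falling from 32.6 and 31.4 CPM to 9.12 and 8.77 CPM (-1.85). The Myc antagonist Mxi1 (1.33) and Zfp395 (0.96) also rose, and the glycogen regulator Ppp1r3c (-3.20) and the repressor Bhlhe40 (-1.19) fell. Some of these genes were low. In control, Slc16a3 was at 1.355 and 1.426 CPM and Mxi1 at 1.89 and 1.82 CPM. In Lin28a+ MuSCs, Ppp1r3c was at 1.18 and 1.02 CPM. Each gene named here passed edgeR's test. Members and glucose targets therefore had medians of opposite sign within the same libraries, and each median is a description of its list.

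Of 19 tested regulators of HIF, 6 rose and 4 fell (median 0.04), a share called that is near the 56.8% of all genes. Vhl, which recognises hydroxylated HIF alpha, rose from 19.4 and 19.1 CPM to 28.1 and 30.3 CPM (log2 fold change 0.60, adjusted p = 6.45e-04, edgeR), and its partner Elob (0.42) and Rack1 (0.40) rose too. Arnt2, a relative of Arnt, fell from 33.8 and 35.5 CPM to 16.5 and 16.8 CPM (-1.06), and the HIF coactivators Ep300 (-0.66) and Crebbp (-0.42) fell. Among 14 tested paralogs of the members 2 rose and 5 fell (median -0.34), again near that share. Vegfb (0.76) and Egln2 (0.20) rose. Vegfc (-1.80, to 1.05 and 1.09 CPM in Lin28a+ MuSCs), Arnt2, Ndrg4 (-0.97), the circadian factor Arntl (-0.62) and Bnip2 (-0.26) fell. Vegfa thus lay between a relative that rose and 1 that fell.

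**Figure D2:**
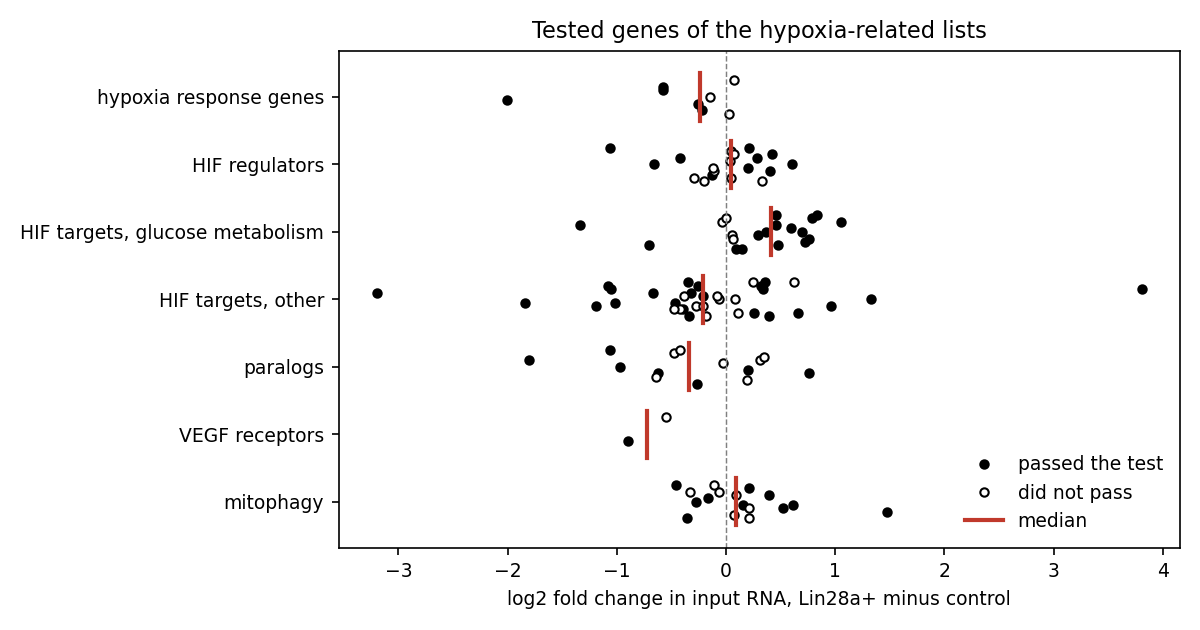
Log2 fold change in input RNA (Lin28a+ minus control) of each tested gene, with 1 row per list. Filled points passed edgeR's test, open points did not, and a red line marks the median of the list, at -0.24 for the hypoxia response genes and at 0.41 for the HIF targets of glucose metabolism.

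The m6A-RIP table held 12 rows for 6 members, namely 5 for Vegfa, 2 each for Hif1a and Bnip3l, and 1 each for Epas1, Egln1 and Egln3. It had none for Arnt, Bnip3, Ndrg1 or P4ha1, and 66.4% of all genes tested in RNA had a row. Per row, 7 of the 12 were lower and 1 higher in Lin28a+ MuSCs, where 61.8% of all 18881 rows were called (30.0% higher and 31.8% lower). The share of 8 in 12 called is near that background. The table gives no positions, and rows are numbered here in the order of the table.

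The Egln3 row carried 38.8 and 43.3 CPM in control and at 10.4 and 9.52 CPM in Lin28a+ MuSCs, from 235 to 1300 counts a library, with a log2 fold change of -2.04 ± 0.10 (SE; adjusted p = 6.41e-10, edgeR). As in RNA, both Lin28a+ libraries lay far below both controls. The Egln1 row was the only member row that rose, from 28.7 and 30.7 CPM to 37.4 and 38.0 CPM (log2 fold change 0.35 ± 0.08, SE; adjusted p = 0.00133, edgeR). So the m6A-RIP signals of the hydroxylases moved in opposite directions.

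Hif1a had a strong row, at 55.3 and 57.8 CPM in control and at 41.3 and 38.6 CPM in Lin28a+ MuSCs (log2 fold change -0.50, adjusted p = 1.47e-05, edgeR), and a weak one at 5.82 and 3.94 CPM and 2.53 and 3.46 CPM. The weak row was called too (-0.71, adjusted p = 0.0270, edgeR), but not with DESeq2 (adjusted p = 0.0591), nor without the first control library (-0.39, adjusted p = 0.347 by edgeR) or the first Lin28a+ column (-0.51, adjusted p = 0.164 by edgeR). Epas1, barely seen in input, had a row with 55 to 119 counts a library, at 3.55 and 3.41 CPM in control and at 2.44 and 2.91 CPM in Lin28a+ MuSCs, which was not called (-0.37, adjusted p = 0.205, edgeR).

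The 5 rows of Vegfa, the vessel growth factor, differed in level. Row 5 was at 192 and 184 CPM in control and at 173 and 170 CPM in Lin28a+ MuSCs, and row 1 was at 180 and 170 CPM and 157 and 156 CPM. Rows 1, 2 and 5 fell by small amounts (log2 fold changes of -0.16, -0.28 and -0.14, adjusted p of 0.0158, 0.00298 and 0.0281 by edgeR), and rows 3 and 4, at most 12.1 CPM in any library, were not called. The calls of rows 1 and 5 were lost without the first control library (adjusted p of 0.184 and 0.211 by edgeR) and without either Lin28a+ column (0.0505 to 0.0917 by edgeR), and that of row 4 was gained with total counts (-0.47, adjusted p = 0.0251 by edgeR) and without the first Lin28a+ column (-0.59, adjusted p = 0.0147 by edgeR). For Bnip3l, row 1 fell from 95.8 and 95.3 CPM to 80.2 and 88.6 CPM (-0.18, adjusted p = 0.0179, edgeR), while row 2 overlapped between groups at 33.1 and 38.2 CPM and 38.9 and 36.3 CPM. The fall of row 1 was not called with DESeq2 (adjusted p = 0.0505) or without the first Lin28a+ column (-0.11, adjusted p = 0.180 by edgeR).

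**Figure D3:**
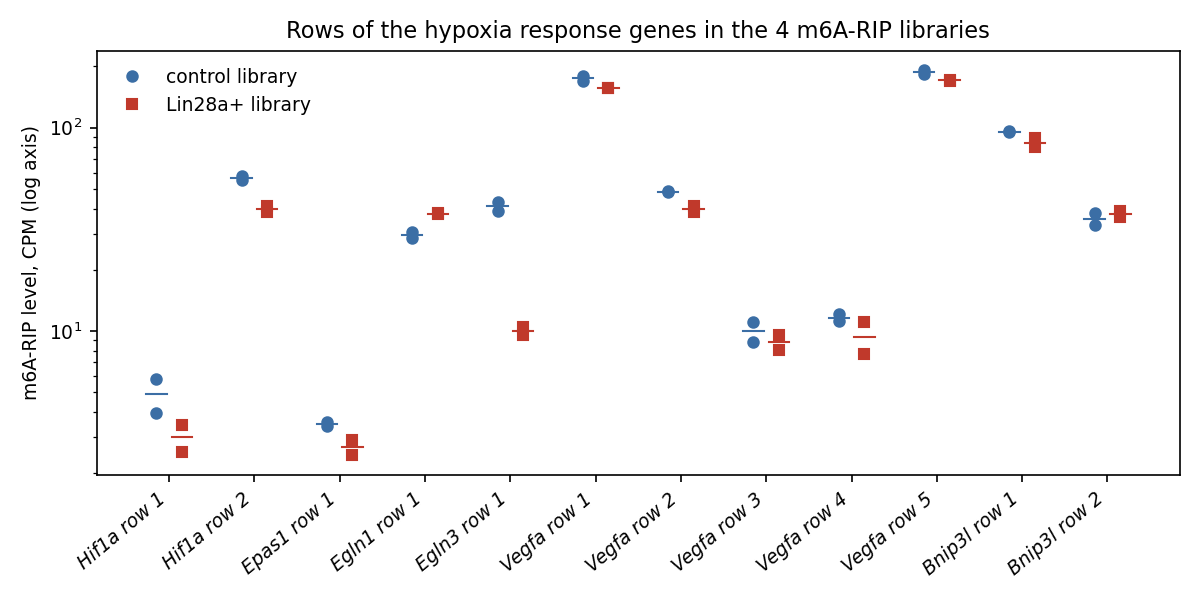
m6A-RIP level of each row of the hypoxia response genes in CPM on a log axis, with 1 point per library (blue circles, control; red squares, Lin28a+) and a line at the mean of 2. The Egln3 row drops from 38.8 and 43.3 CPM to 10.4 and 9.52 CPM, and the Egln1 row is the only one called higher, at 37.4 and 38.0 CPM against 28.7 and 30.7 CPM.

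With the rows of a gene summed, Egln3 (log2 fold change -2.10), Hif1a (-0.57), Vegfa (-0.22) and Bnip3l (-0.16) fell and Egln1 (0.30) rose, 5 of 6 members called where 66.3% of all 9416 genes were (32.5% higher and 33.8% lower). The Bnip3l call was lost without the second control library (-0.13, adjusted p = 0.0608 by edgeR) or the first Lin28a+ column (-0.12, adjusted p = 0.0511 by edgeR). The m6A-RIP change of a gene includes the change of its RNA, so the difference between both changes was tested in 1 model over the 8 libraries. In it 1 of 6 members was called, against 7.18% of all 8053 genes (3.05% higher and 4.12% lower). That gene was Bnip3l, whose m6A-RIP fell less than its RNA (difference on the log2 scale 0.40 ± 0.10, SE; adjusted p = 0.0439, edgeR). The origin of the Bnip3l rows is uncertain, since they name the transcript to which RIP peaks inside the neighbouring gene Ppp2r2a were assigned. DESeq2 gave 0.42 with an adjusted p of 0.221, and the call was lost without any 1 of the 4 input libraries (adjusted p of 0.0861 to 0.271 by edgeR), the first control or the second Lin28a+ m6A-RIP library (0.0704 and 0.0638). Egln1 missed the threshold (0.25, adjusted p = 0.0634, edgeR), but passed with at least 10 counts in every library (0.28, adjusted p = 0.0423) and without the second control m6A-RIP library (0.30, adjusted p = 0.0363). For Egln3 the difference was -0.10 (95% interval -0.38 to 0.18) and for Hif1a -0.01 (-0.21 to 0.19), intervals that bound how far their m6A-RIP and RNA changes differ. For Vegfa it was -0.09 (-0.30 to 0.13), and for Epas1, with at most 5.19 estimated counts in input, the standard error was 1.06.

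**Figure D4:**
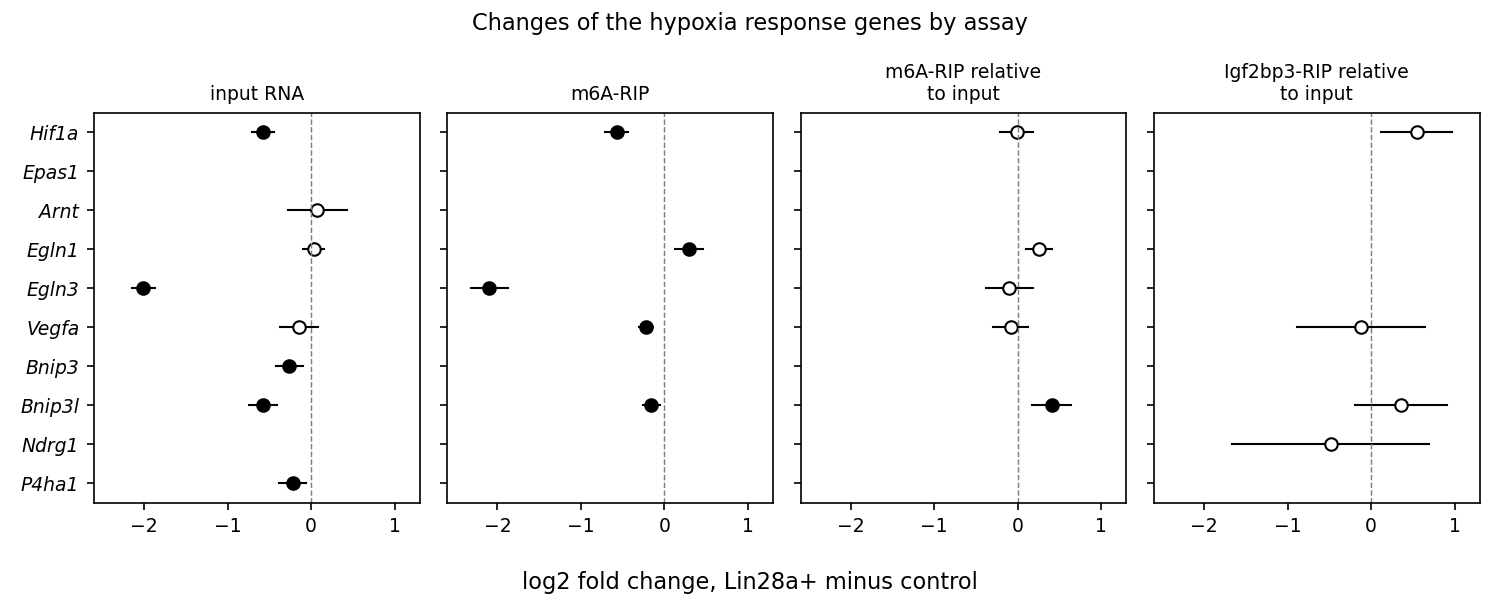
Log2 fold change (Lin28a+ minus control) of each gene, with its 95% interval, in input RNA, in m6A-RIP summed per gene, in m6A-RIP relative to input and in Igf2bp3-RIP relative to input, with filled points for those called at an adjusted p under 0.05 by edgeR. Egln3 sits at -2.01 in RNA and -2.10 in m6A-RIP but at -0.10 once m6A-RIP is taken relative to input. Epas1 is not drawn, and a gene without a point was not tested in that assay. In Igf2bp3-RIP the Ndrg1 point rests on a peak in Ccn4 and is no measure of Ndrg1. The Bnip3l point there includes peaks in Ppp2r2a, and the origin of the m6A-RIP rows of Bnip3l is uncertain.

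As a level rather than a change, m6A-RIP CPM over input CPM placed the members far apart. Vegfa stood at a ratio of 12.8 in control and 11.1 in Lin28a+ MuSCs, at the 97.1 and 96.7 percentiles of 7511 genes whose median ratios were 1.51 and 1.37. No ratio is given for Bnip3l, since the origin of its rows is uncertain. Hif1a (0.741 and 0.680), Egln3 (0.451 and 0.389) and Egln1 (0.217 and 0.237) lay below the median gene in both kinds of cells. These ratios set counts over peaks against estimated counts over genes and were not tested.

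The Igf2bp3-RIP table annotated 20 peaks to 4 members, with 13 for Hif1a, 3 each for Vegfa and Bnip3l and 1 for Ndrg1. A gene with a peak made up 33.2% of all genes tested in RNA. Coordinates are as deposited, and matched RefSeq genes of GRCm38.p6. Set against those gene spans, 3 of the 20 peaks did not lie in the member they were annotated to, where 19.4% of all 19465 Igf2bp3-RIP peaks lay outside their annotated gene. The Bnip3l peaks at chr14:67015713-67016144 and chr14:67016437-67016791 lay in Ppp2r2a, 6836 and 7560 bases from Bnip3l, and only the peak at chr14:66985438-66985878 lay in Bnip3l. The 1 peak of Ndrg1, at chr15:66922316-66922986, lay in Ccn4, 6332 bases away. Both m6A rows of Bnip3l name the same transcript (ENSMUST00000022634) as the peaks found in Ppp2r2a, and since that table has no positions it cannot be told which gene those reads came from. Ppp2r2a RNA was not called (log2 fold change -0.17, adjusted p = 0.0557, edgeR). In the other direction, the span of Hif1a held 2 more Igf2bp3-RIP peaks annotated to its neighbour Snapc1, and that of Arnt held 1 annotated to Ctsk.

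None of the 20 peaks was called different between groups, where 0.123% of all 19465 peaks were (0.0616% higher and 0.0616% lower). That is 24 peaks by edgeR, 263 by DESeq2 and 1017 at an unadjusted p under 0.05, and none of the 20 was called by DESeq2 either. With a library left out edgeR called 108 to 193 peaks, again with 0 of the 20. The 13 peaks of Hif1a had log2 fold changes of 0.01 to 0.35 (median 0.18), all positive but each smaller than its standard error of at least 0.26. Their median was 0.29 without the first control library and 0.14 to 0.17 without any other, and in the latter 3 fits some peaks were negative (lowest -0.58). The strongest, at chr12:73941871-73942301, carried 172 and 153 CPM in the control libraries and 192 and 197 CPM in those of Lin28a+ MuSCs, and the second, at chr12:73945393-73946559 near the end of the gene, 111 and 120 CPM and 111 and 141 CPM. Groups were apart at the first and overlapped at the second. Exons were not at hand, so no peak is placed in an exon or untranslated region, and the Hif1a peaks from chr12:73937476 onwards also lie in the annotated gene Gm15283, whose reads cannot be told from those of Hif1a without strand. For Vegfa, the peak at chr17:46017858-46018994 carried 164 and 161 CPM in the control libraries and 120 and 190 CPM in those of Lin28a+ MuSCs, with the control libraries inside the range of the others.

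Relative to input, Igf2bp3-RIP of Hif1a was higher by 0.55 on the log2 scale (95% interval 0.12 to 0.97), with an adjusted p of 0.136 by edgeR that did not pass. Here 0 of 4 members were called, against 1.08% of all 3967 genes, 0.353% higher and 0.731% lower (43 genes by edgeR, 67 by DESeq2, 954 at an unadjusted p under 0.05). The summed Igf2bp3-RIP level of Hif1a was 799 and 739 CPM in control and at 834 and 933 CPM in Lin28a+ MuSCs, while its RNA fell. With the first Lin28a+ Igf2bp3-RIP library left out the difference was 0.64 and passed (adjusted p = 0.0467, edgeR). Vegfa (-0.12) was not called, nor were the sums annotated to Bnip3l (0.36), which hold 2 peaks of Ppp2r2a, and to Ndrg1 (-0.48), which set a peak of Ccn4 against Ndrg1 input and are no measure of Ndrg1. With peaks inside their RefSeq gene alone, an alternative chosen after the positions were seen, Hif1a was at 0.49 (adjusted p = 0.166), Bnip3l at 0.41 (0.453) and Vegfa at -0.17 (0.798), all by edgeR.

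Lin28a-RIP, measured in Lin28a+ MuSCs alone, annotated 12 peaks to 4 members, with 7 for Hif1a, 3 for Vegfa and 1 each for Bnip3l and P4ha1, and 25.6% of all genes tested in RNA had a peak. No control immunoprecipitation exists among the libraries analysed, so these are levels with no comparison. The strongest Hif1a peak, at chr12:73941871-73942296, held 2643 and 2578 counts (72.3 and 76.0 CPM), and its start is that of the strongest Igf2bp3-RIP peak of the gene. The strongest Vegfa peak, at chr17:46017713-46018429, held 2529 and 2112 counts (69.1 and 62.2 CPM). The Bnip3l peak, at chr14:67016436-67016775 with 943 and 927 counts, again lay in Ppp2r2a. P4ha1 had a weak peak at chr10:59342489-59342706 with 481 and 417 counts, and its span held another, at chr10:59370851-59371838, that was annotated to Pla2g12b.

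Of the 12 Lin28a-RIP peaks, 11 (91.7%) shared at least 1 base with a peak of Igf2bp3-RIP, where 52.4% of all 21616 Lin28a-RIP peaks did. All 7 peaks of Hif1a and all 3 of Vegfa were among them, and the P4ha1 peak was the exception. In the other direction 10 of the 20 Igf2bp3-RIP peaks overlapped a Lin28a-RIP peak, against 60.4% of all. With an overlap of at least 50% of each peak, 10 of the 12 Lin28a-RIP peaks were shared, against 43.0% of all, and the 10 of 20 Igf2bp3-RIP peaks stood against 47.75% of all, so their place relative to all peaks turned with this choice. Peaks of 1 gene share their transcript and are not independent, and the overlap was not tested. Over input, the Lin28a-RIP ratio was 4.58 for Vegfa and 4.25 for Hif1a, both a little above the median of 3.11 over 2898 genes (58.4 and 56.7 percentiles). For P4ha1 it was 0.292, which counts its weak annotated peak but not the peak in its span annotated to Pla2g12b. The Hif1a ratio likewise leaves out a peak in its span annotated to Snapc1. No ratio is given for Bnip3l, whose annotated peak lies in Ppp2r2a.

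**Figure D5:**
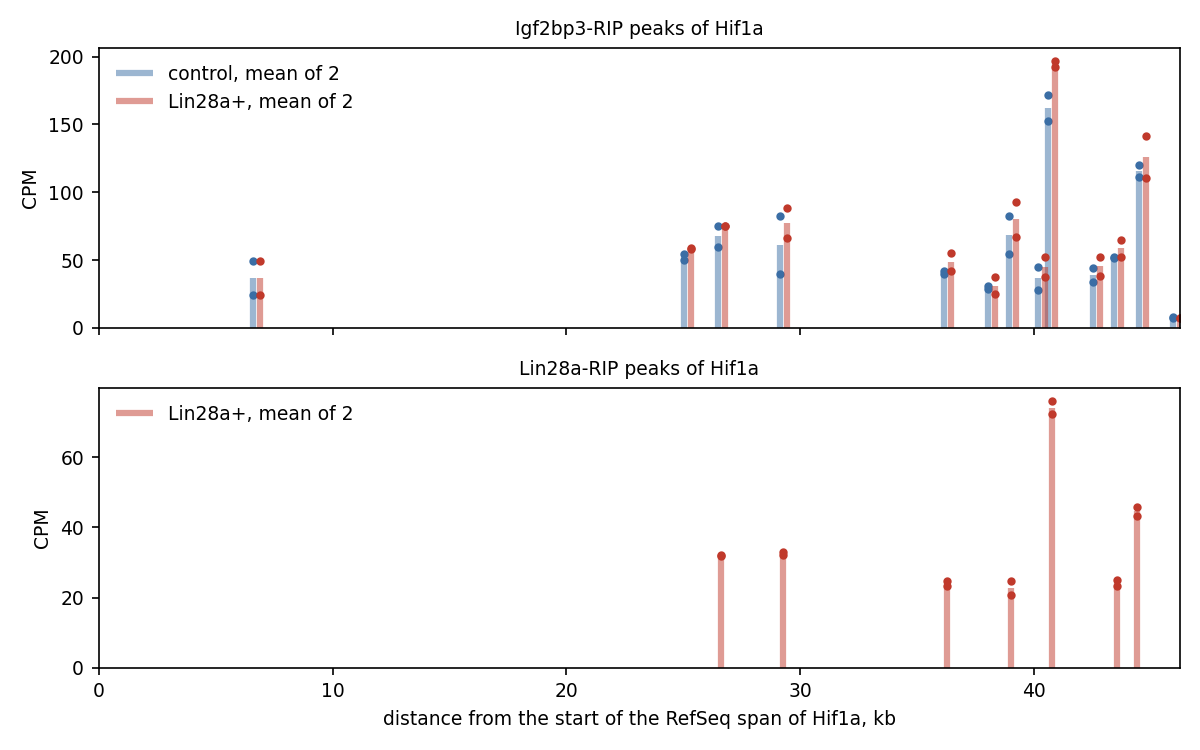
Peaks annotated to Hif1a by distance from the start of its RefSeq span in kb, with the level in CPM on axes that start at 0; points are libraries and bars their means (blue, control; red, Lin28a+; groups are shifted sideways for display). The tallest peak is the same in both assays, at 153 to 197 CPM in Igf2bp3-RIP (top) and at 72.3 and 76.0 CPM in Lin28a-RIP (bottom).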

How the data were processed

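The authors deposited input as 1 estimated count per gene and library, and the RIP tables as raw read counts per peak, none scaled between libraries. The submitters' processing notes name FastQC, HISAT2 2.0.4, DESeq2 1.42.0 and MACS2 (version given as 1.4.3). The study names GRCh38, the notes also mm10, and identifiers and positions are those of mouse. The counter, peak threshold and pooling are not given in the sources used here. Columns were assigned by name, and the Lin28a+ columns of the input table (headed with m6A-RIP names) and of the m6A-RIP table (both headed alike) were taken without a replicate number.

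Tests used edgeR 4.0.16 in R 4.3.3 (quasi-likelihood, TMM, filterByExpr, Benjamini-Hochberg adjusted p under 0.05 over all features), with input rounded to whole numbers and an interaction term for values relative to input. The standard error and 95% interval are those that edgeR's p implies. Simulated data were used to check that the fits returned the size of a set change, with no limit placed on false calls. CPM levels of input, m6A-RIP, Igf2bp3-RIP and Lin28a-RIP use TMM-scaled library sizes, and RIP over input ratios use table totals. Alternatives were DESeq2, total counts, DESeq2 size factors, no filter, at least 10 counts in every library, each library left out, a replicate block, a pseudocount of 1 CPM and an overlap of 50% of each peak. Promoter sequences and gene spans are from RefSeq (GRCm38.p6).

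All members are named, with the 3 largest rises and falls past the threshold per list, and paralogs that passed. Members and lists were chosen with earlier results of these data known. Lin28a itself was not analysed here. Depth was 4842915 to 36610494 counts a library, and counts without molecular identifiers are not independent molecules.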

Additional observations from a re-analysis of the deposited data

How the results depend on the processing

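Hif1a and Egln3 kept their lower RNA call under every alternative run, where those that leave out a library rest on the spread within 1 group of 2. Counts of calls with DESeq2 differed from those with edgeR, with 3039 genes in RNA (edgeR 6432), 344 in m6A-RIP relative to input (578), 263 Igf2bp3-RIP peaks (24) and 67 genes in Igf2bp3-RIP relative to input (43). With at least 10 counts in every library, 0 Igf2bp3-RIP peaks were called (972 at an unadjusted p under 0.05, edgeR), and with peaks inside their RefSeq gene alone, chosen after seeing the data, 0 genes relative to input (721). Leaving out each library gave 305 to 633 genes for m6A-RIP relative to input, 108 to 193 Igf2bp3-RIP peaks and 0 to 571 genes for Igf2bp3-RIP relative to input, where each input library left out gave 0 (492 to 525 at an unadjusted p under 0.05, edgeR) and the first Lin28a+ Igf2bp3-RIP library left out gave 571. The cause was not tested. Total counts shifted the median m6A row by -0.15, the median m6A gene by -0.10 and the median gene of Igf2bp3-RIP relative to input by 0.14 (32 higher and 13 lower, against 14 and 29), and split the m6A rows into 3842 higher and 7638 lower (5665 and 6005 with TMM) and the m6A genes into 2395 and 3766 (3060 and 3179).

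Signs turned for several member values that were not called, and values that kept their sign are named as such. Bnip3l m6A row 2 was at -0.075 with total counts, and Hif1a m6A-RIP relative to input was at 0.0044 with DESeq2, 0.0023 with total counts, 0.0052 with DESeq2 size factors and 0.0136 with at least 10 counts. With each library left out, the log2 fold change ranged from -0.028 to 0.089 for Egln1 RNA, from -0.025 to 0.18 for Bnip3l m6A row 2, from -0.067 to 0.047 for Hif1a and from -1.51 to 0.94 for Epas1 in m6A-RIP relative to input, and from -0.49 to 0.21 for Vegfa in Igf2bp3-RIP relative to input. The median over the Igf2bp3-RIP peaks annotated to a gene ranged from -0.23 to 0.19 for Bnip3l, from -0.0007 to 0.52 for Ndrg1 and from -0.32 to 0.30 for Vegfa. For Hif1a it stayed positive, at 0.14 to 0.29. Most peaks annotated to Bnip3l lie in Ppp2r2a and that of Ndrg1 lies in Ccn4, so these medians are no measure of Bnip3l or Ndrg1. The Lin28a-RIP to input log2 ratio of P4ha1, from its annotated peak alone, was -1.70 with a pseudocount of 1 CPM (-1.78 without) and kept its sign.

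A replicate block by the labelled numbers could be fitted for Igf2bp3-RIP peaks. Replicate differences correlated between the groups (r = 0.703 over 19465 peaks), the labels do not say what a number marks, and the block called 1988 peaks, 0 of them in members. A replicate block by the numbers in the column headers, chosen after seeing the data, takes the m6A-RIP names of the Lin28a+ input columns at face value (r = 0.118 over 11317 input genes). It called 6535 genes in RNA, with the same 5 members lower, and 727 in Igf2bp3-RIP relative to input, with 0 of 4 members (Hif1a 0.54, adjusted p = 0.0599, edgeR). No paired analysis was possible for m6A-RIP because both of its Lin28a+ columns carry the same number. With 2 libraries a group and a spread of 27.9%, the standard errors of member peaks in Igf2bp3-RIP were 0.26 to 0.48 on the log2 scale.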

Other observations

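Of the receptors of the VEGF ligands, Kdr and Flt4 have no row in the input table and were not analysed here. Flt1 was at 0.0314 to 0.136 CPM, and of the neuropilin co-receptors Nrp2 fell from 9.21 and 9.13 CPM in control to 4.63 and 5.04 CPM in Lin28a+ MuSCs (log2 fold change -0.90, adjusted p = 7.16e-04, edgeR's quasi-likelihood test). Nrp1 had a log2 fold change of -0.55 that did not pass (adjusted p = 0.0509, edgeR).

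Other genes of mitophagy, the removal of mitochondria in which Bnip3 and Bnip3l act as receptors, included 6 that rose and 4 that fell in RNA among 17 tested (median log2 fold change 0.10), a share called near the 56.8% of all genes. The autophagosome protein Map1lc3a rose from 126 and 119 CPM to 334 and 344 CPM (1.47), and the mitochondrial proteins Fkbp8 (0.61) and Phb2 (0.52) rose. The autophagy receptor Optn (-0.46), Becn1 (-0.36) and Gabarapl1 (-0.27) fell, each past edgeR's test.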
